A study of Mus musculus with 4 samples.

Results

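The G-CSF receptor and the genes that carry or damp its signal were examined in liver samples of mice treated with granulocyte colony-stimulating factor (G-CSF). The set holds 9 genes chosen by name: the receptor Csf3r, the kinases Jak2, Lyn and Pim1, the transcription factors Stat3 and Stat5a, the feedback inhibitors Socs3 and Cish, and the phosphatase Ptpn6. Each was matched by gene symbol to Affymetrix probe sets that list 1 gene. Probe sets of the platform table represented 8 of the 9 genes, by 17 probe sets in all, out of 18193 genes with a single-gene probe set, and Lyn was not analysed here. For each gene the probe set with the highest mean signal is the main one and the others are given beside it. The study used C57BL/6 mice, and all of them received 30 injections of carbon tetrachloride at 1 ml/kg, a hepatotoxin that scars the liver. Over the last 7 days they were given recombinant human G-CSF at 100 µg/kg (2 arrays, G-CSF replicates 1 and 2) or the vehicle, which was phosphate-buffered saline (PBS) holding mouse serum albumin at 0.1% (2 arrays, PBS replicates 1 and 2). The labels call the material liver tissue and also marrow-derived cells that had migrated to the fibrotic liver, and they name no sort. They do not say that replicates came from separate animals, so the p-values measure only the spread between these arrays, which may be technical.

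G-CSF is the main growth factor of neutrophils. Its receptor has no kinase of its own: on binding ligand it pairs up and activates JAK kinases held at its cytoplasmic part, which phosphorylate the receptor and then STAT proteins, above all STAT3 and STAT5. Src-family kinases such as LYN act beside the JAKs. STATs enter the nucleus and switch on target genes, among them Socs3 and Cish, whose proteins shut the signal down at the receptor and the JAKs, and Pim1, a kinase that favours cell survival. SHP-1, the protein of Ptpn6, removes phosphate groups and so limits the signal. In liver, hepatocytes use the same STAT3 and SOCS3 downstream of interleukin 6, so these transcripts are not limited to leukocytes.

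The sequences below show where letters of known binding cores occur near the starts of the receptor gene and of 2 inhibitor genes that STATs are known to switch on. They are credited to RefSeq, build GRCm38.p6, and are written 5′ to 3′ in the direction of transcription. The search covered both strands of windows of 300 bases (250 before and 50 after an annotated start) for TTCNNNGAA, the STAT core, GAGGAA, the core bound by the myeloid factor PU.1, and TTNNGNAA, a C/EBP core. Capitals mark the matches. The Csf3r stretch is chr4:126024409-126024658 on the plus strand, within the annotated gene span of chr4:126023441-126044975. The Socs3 stretch is chr11:117969501-117969530 and the Cish stretch is chr9:107296654-107296683, on the minus and the plus strand in that order, and each is shown because it holds the STAT cores of its window.
Csf3r: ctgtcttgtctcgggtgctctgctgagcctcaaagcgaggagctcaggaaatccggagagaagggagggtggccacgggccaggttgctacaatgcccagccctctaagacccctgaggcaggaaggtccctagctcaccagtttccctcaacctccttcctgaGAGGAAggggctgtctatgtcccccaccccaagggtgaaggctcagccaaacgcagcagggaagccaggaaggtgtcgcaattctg
Socs3: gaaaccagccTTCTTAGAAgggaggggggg
Cish: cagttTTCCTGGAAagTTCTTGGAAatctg
The Csf3r window held 1 PU.1 core, 86 to 81 bases before the start, and neither a STAT nor a C/EBP core of these letters. The Socs3 window held 1 STAT core, 154 to 146 bases before the annotated start used, within the annotated gene span of chr11:117966079-117970336. The Cish window held 2 STAT cores, at bases 1 to 9 and 12 to 20 after the start. Of 32851 mouse windows of the same length, 8.30% held the STAT core, 28.3% the PU.1 core and 40.7% the C/EBP core. The windows of Jak2, Stat3, Stat5a, Pim1 and Ptpn6 held no STAT core. A match is a description of letters and was not tested as a binding site.

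Signals are the authors' MAS5 values, on a linear scale. A difference is the mean log2(signal + 23) with G-CSF less that with PBS, given with its SE from limma fitted to 12187 genes (n = 2 arrays per group), and the added 23 makes differences of weak genes look smaller. The background limit, which is the strongest of 27 control probe sets for bacterial sequences on an array, was 86.4 and 63.0 on the G-CSF arrays and 106 and 94.6 on the PBS arrays. The array least like the rest was PBS replicate 1, whose correlations with the other 3 over all genes tested were 0.813 to 0.844. The SD between replicates was 0.29 with G-CSF and 0.82 with PBS, so each member is also given against each PBS array alone. The 3′ control of Gapdh exceeded its 5′ control by ratios of 20.2 and 19.1 on the G-CSF arrays and 15.7 and 14.8 on the PBS arrays, and the part of this in the results was not tested. Hepatocyte markers were abundant on all arrays: their summed signal over 7 genes was 220620 and 214254 with G-CSF and 148147 and 242334 with PBS. Alb and Ttr, plasma proteins made by hepatocytes, were the 2 of them with the highest mean signal. These arrays thus hold hepatocyte transcripts beside those of the labelled marrow-derived cells.

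The receptor itself was the member that differed most. Csf3r had signals of 3302 and 3496 in the G-CSF arrays, against 167 and 265 in the PBS arrays. The lower G-CSF signal was 12.5 times the higher PBS signal, and both PBS signals lay above the background limit. The means were 3399 ± 137 with G-CSF and 216 ± 68.8 with PBS (SD, n = 2 arrays each). The log2 difference was 3.87 ± 0.36, or 14.6-fold, with a 95% interval of 2.94 to 4.80, and it was 4.17 against PBS replicate 1 alone and 3.57 against PBS replicate 2 alone. In size it was number 27 from the top among the 12187 genes. It did not pass Benjamini-Hochberg adjustment over all genes (limma, unadjusted p = 0.00011, adjusted p = 0.0893), and it did pass when either PBS array was left out. The adjusted p was 0.000522 without PBS replicate 1, in a fit that called 4.23% of all genes, and 0.000112 without PBS replicate 2, in a fit that called 38.5% of them. In both fits the lone PBS array was assumed to vary like the G-CSF pair, whose spread was the smaller. Csf3r did not pass without G-CSF replicate 1 or without G-CSF replicate 2 (limma adjusted p = 0.116 and 0.122). In an exact permutation test of 2 arrays against 2, the two-sided p was 0.333, the smallest such a design can give.

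Neutrophil markers stood beside the receptor. All 10 of the tested markers of the neutrophil list had both G-CSF arrays above both PBS arrays, as did 18.6% of all genes tested. The differences of the 10 markers ran from 2.63 to 6.71, with a median of 4.71. The summed signal of the list was 247853 and 207053 with G-CSF and 26128 and 8151 with PBS. That sum was higher on PBS replicate 1 than on PBS replicate 2, whereas Csf3r was higher on PBS replicate 2. Not every marker had the order of the sum. S100a8 and S100a9, the subunits of calprotectin, had the highest mean signals in the list, with differences of 2.63 ± 0.55 and 4.76 ± 0.62 (limma, adjusted p = 0.567 and 0.162). The part of neutrophil numbers in the Csf3r signal was not tested. The Csf3r difference of 3.87 was below that of 9 of the 10 markers, whose differences began at 4.11, and above that of S100a8, whose signal of 63074 on G-CSF replicate 1 was close to the highest of that array, 63693. In bulk RNA, more neutrophils and more receptor transcript per cell cannot be told apart.

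**Figure D1:**
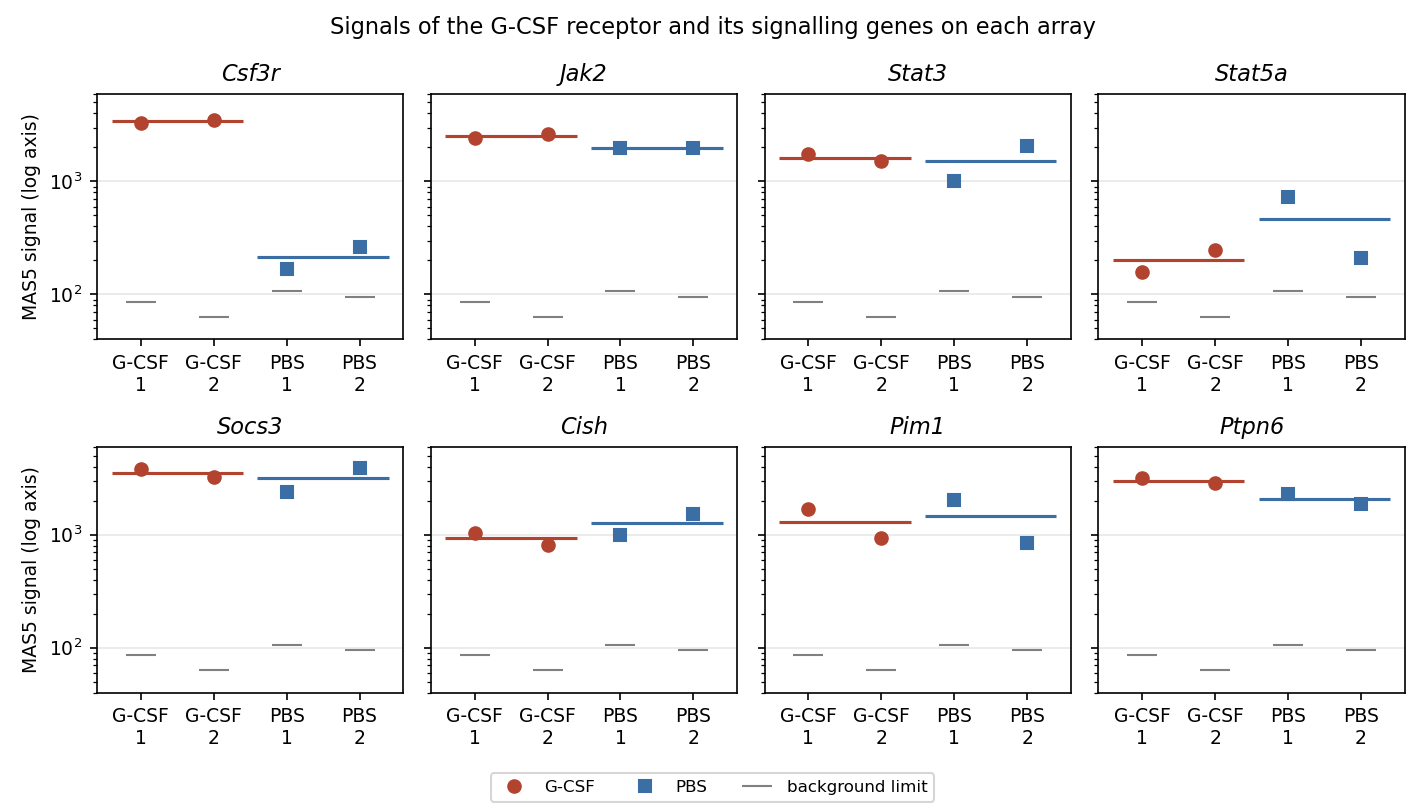
MAS5 signals (log axis) of the 8 measured members on the 2 G-CSF arrays (red circles) and the 2 PBS arrays (blue squares), with group means as horizontal lines and the background limit of each array as a grey dash. Csf3r had 3302 and 3496 with G-CSF against 167 and 265 with PBS, while the arrays of both groups overlap for Stat3, Stat5a, Socs3, Cish and Pim1.

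Over all genes, limma called 0 of 12187 (0%) after adjustment, and 429 (3.52%) had an unadjusted p below 0.05. Among the 8 members 0 were called, and 1, Csf3r, had an unadjusted p below 0.05. The 2 groups of arrays did not overlap for 3 of the 8 members, Csf3r, Jak2 and Ptpn6, all higher with G-CSF. Of all genes tested 30.7% had no overlap in either direction and 18.6% were higher without overlap, against 37.5% of the 8 members, a share that rests on 3 genes. Only Csf3r of the 8 combined no overlap with a difference of at least 2-fold, as did 4.04% of all genes on the higher side. The median difference of the members was 0.18, against 0.07 over all genes tested.

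Jak2 (chr19:29251803-29313095) encodes the kinase that binds the receptor's membrane-proximal part. Its signals were 2408 and 2638 with G-CSF, against 1968 and 1994 with PBS. Both PBS arrays lay below both G-CSF arrays. The difference of 0.34 ± 0.32 (interval -0.46 to 1.15) did not pass the test (limma adjusted p = 0.988), and it was 0.35 and 0.33 against PBS replicates 1 and 2 alone. A weaker Jak2 probe set had signals of 230 and 190 with G-CSF, against 138 and 166 with PBS, and a difference of 0.41 ± 0.35. Both probe sets thus had the G-CSF arrays above the PBS arrays.

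Stat3 (chr11:100886806-100939594) encodes the main transcription factor downstream of the receptor. Its main probe set had signals of 1734 and 1515 with G-CSF, against 1006 and 2050 with PBS. Both G-CSF arrays lay between the PBS arrays. The difference was 0.17 ± 0.45 (interval -0.98 to 1.32, limma adjusted p = 0.988), and its sign depended on the PBS array, with 0.68 against PBS replicate 1 alone and -0.33 against PBS replicate 2 alone. A second probe set had signals of 1044 and 1009 with G-CSF, against 707 and 1167 with PBS, the same order of arrays. The 2 weakest probe sets opposed each other. One had 188 and 169 with G-CSF, against 70.2 and 92.3 with PBS. Both PBS signals were not above background there, so the groups differed by at least 1.63-fold (limma adjusted p = 0.983). The other had 69.9 and 103 with G-CSF, against 241 and 127 with PBS, a difference of -0.88 ± 0.46 (limma adjusted p = 0.983), and G-CSF replicate 1 was not above background in it.

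Stat5a (chr11:100859351-100885169) encodes the other STAT of the pathway in the set. Its signals were 159 and 247 with G-CSF, against 728 and 211 with PBS. PBS replicate 1 was alone in being high, and PBS replicate 2 lay between the G-CSF arrays. The difference was -0.92 ± 0.64 (interval -2.56 to 0.72, limma adjusted p = 0.988). Against PBS replicate 1 alone it was -1.76, and against PBS replicate 2 alone it was -0.08. Most T cell markers were high on that same array, 8 of the 9 tested having their highest signal there: the summed signal over 10 genes was 3171 and 1818 with G-CSF and 17250 and 2172 with PBS. Of 9 tested T cell markers 5 were lower with G-CSF without overlap and none was higher without overlap, against 12.1% of all genes tested lower without overlap, with a median of -2.12 that was -0.13 without PBS replicate 1. Cd8a, the T cell coreceptor chain, and Cd3g, part of the antigen receptor complex, had the highest mean signals. Cd3g had 185 and 136 with G-CSF, against 4116 and 157 with PBS. Cd8a, the exception among the 9, had 2249 and 962 with G-CSF, against 1362 and 1359 with PBS, and was highest on G-CSF replicate 1. The part of these cells in the Stat5a signal was not tested. The other Stat5a probe set had signals of 21.8 to 63.6 and was not above background on any array.

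**Figure D2:**
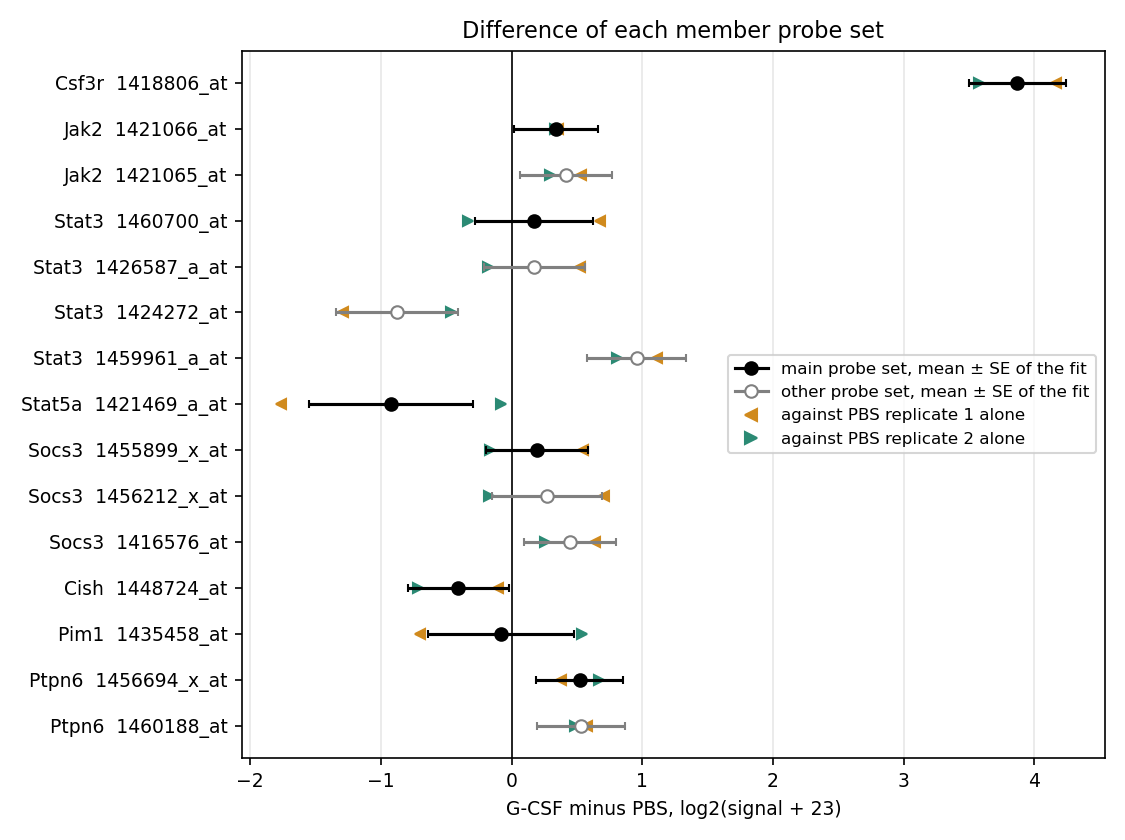
Log2 differences, G-CSF minus PBS, for the 15 member probe sets above the filter on low signal, with the SE of a limma fit over all such probe sets (n = 2 arrays per group). Triangles give the difference against each PBS array alone; for Csf3r they lie at 4.17 and 3.57 on either side of 3.87, whereas the triangles of the main Stat3, Socs3 and Pim1 probe sets lie on opposite sides of 0.

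Socs3 (chr11:117966079-117970336) encodes the inhibitor that binds the activated receptor and blocks the JAKs. Its main probe set had signals of 3807 and 3213 with G-CSF, against 2381 and 3922 with PBS. As for Stat3, both G-CSF arrays lay between a low PBS replicate 1 and a high PBS replicate 2. The difference was 0.19 ± 0.39 (interval -0.80 to 1.18, limma adjusted p = 0.988), with 0.55 against PBS replicate 1 alone and -0.16 against PBS replicate 2 alone. A second probe set repeated this order, with 1543 and 1416 with G-CSF and 896 and 1666 with PBS. The weakest probe set had 403 and 528 with G-CSF, against 289 and 382 with PBS, without overlap and with a difference of 0.45 ± 0.35 (limma adjusted p = 0.983). The upper end of the main interval corresponds to 2.27-fold, a bound that holds for the main probe set only. The main and second probe sets were left out of the alternative that kept specific probe sets. There the weakest probe set stood for Socs3, with a difference of 0.45 ± 0.35. The Csf3r interval began at 7.68-fold.

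The order of arrays in Stat3 and Socs3 was also that of other lists. PBS replicate 1 was lowest and PBS replicate 2 highest, with the G-CSF arrays between, in the summed signals of the hepatocyte markers and of 11 hepatocyte acute-phase genes, and in those of the monocyte and macrophage markers. The acute-phase sum was 168187 and 148319 with G-CSF and 80983 and 187569 with PBS, and Hpx, a heme carrier, and Hp, haptoglobin, had the highest mean signals in it. The monocyte and macrophage sum was 70938 and 67768 with G-CSF and 35754 and 86661 with PBS, with Csf1r, the receptor of the macrophage growth factor, and Cd5l, a protein of tissue macrophages, highest in mean signal. Not all of that list followed this order: 3 of its 10 tested genes were higher with G-CSF without overlap, against 18.6% of all genes tested. F13a1, a coagulation factor subunit of monocytes, had 1457 and 1936 with G-CSF, against 48.9 and 216 with PBS, with PBS replicate 1 not above background. Ccr2, the chemokine receptor of inflammatory monocytes, had 3082 and 4053 with G-CSF, against 803 and 1403 with PBS. Its difference was 1.71 ± 0.42 (limma adjusted p = 0.795), with 0.90 and 0.95 by other probe sets. Cd68, a lysosomal protein of macrophages, had 1908 and 1807 with G-CSF, against 689.8 and 1666 with PBS. The exact order of the 4 arrays shown by Stat3 and Socs3 was found in 10.9% of all genes tested. The part of these cell types in the Stat3 and Socs3 signals was not tested.

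Cish (chr9:107296659-107302784) encodes the founding SOCS family inhibitor, which is induced by STAT5. Its signals were 1044 and 815 with G-CSF, against 992 and 1526 with PBS. G-CSF replicate 2 was the lowest array and PBS replicate 2 the highest, and the groups overlapped. The difference was -0.41 ± 0.38 (interval -1.39 to 0.57, limma adjusted p = 0.988). Against PBS replicate 1 alone it was -0.10, and against PBS replicate 2 alone -0.71. It kept that sign under the alternatives tried, from -0.71 to -0.10. The interval ended at 1.48-fold on its upper side.

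Pim1 (chr17:29490785-29496111) encodes the survival kinase that STATs switch on. Its signals were 1674 and 933 with G-CSF, against 2047 and 852 with PBS. Each group held 1 high and 1 low array, and PBS replicate 1 was the highest of all. The difference was -0.08 ± 0.56 (interval -1.52 to 1.36, limma adjusted p = 0.996), with -0.70 against PBS replicate 1 alone and 0.54 against PBS replicate 2 alone. The second Pim1 probe set had signals of 48.6 and 53.4 with G-CSF and 27.9 and 41.7 with PBS, and it was not above background on any array.

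Ptpn6 (chr6:124720707-124738709) encodes SHP-1, a phosphatase of blood cells. Its signals were 3150 and 2846 with G-CSF, against 2304 and 1874 with PBS. Both G-CSF arrays lay above both PBS arrays. The difference was 0.52 ± 0.33, or 1.44-fold (interval -0.32 to 1.36, limma adjusted p = 0.988), and it was 0.37 and 0.67 against PBS replicates 1 and 2 alone. The other probe set had 2077 and 1668 with G-CSF, against 1240 and 1320 with PBS, with a difference of 0.53 ± 0.34. Ptpn6 and Jak2 were the 2 members other than Csf3r whose probe sets all separated the groups in the same direction. Of single probe sets, 31.2% had groups without overlap in either direction. The share of genes whose probe sets all separate in 1 direction was not computed.

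The other genes of the pathway were read from 8 lists of 90 genes, of which 77 were tested. None of the 77 was called by limma after adjustment. An unadjusted p below 0.05 was found for 8 (10.4%), 7 higher and 1 lower with G-CSF, against 3.52% of all genes tested. Groups did not overlap for 37 (48.1%), against 30.7% of all genes tested. Of the 77, 28 were higher and 9 lower without overlap, against 18.6% and 12.1% of all genes tested. The median difference of the 77 was 0.23, against 0.07 over all genes. These lists were chosen with earlier results of these data known.

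Tyrosine kinases of the Src family and their partners held the widest spread. Of 9 tested, 0 were called, and 4 were at least 2-fold higher without overlap (Fgr, Fes, Btk and Syk). Only 1, Blk, was at least 2-fold lower without overlap, and Syk and Blk were named after their values were seen. Of all 12187 genes tested, 492 (4.04%) were at least 2-fold higher without overlap and 185 at least 2-fold lower. Fgr, a Src-family kinase of neutrophils and monocytes, had signals of 3714 and 2559.6 with G-CSF, against 887 and 1340.5 with PBS, and a difference of 1.48 ± 0.40 (limma adjusted p = 0.961), while another Fgr probe set gave 0.77. Fes, a myeloid kinase, differed by 1.83 ± 0.52 and Btk, a kinase of B and myeloid cells, by 1.65 ± 0.54 (limma adjusted p = 0.988 for both). Against PBS replicates 1 and 2 alone the Fgr difference was 1.77 and 1.19, that of Fes was 2.50 and 1.16, and that of Btk, which was not above background on PBS replicate 1, was 2.33 and 0.96. Blk, a Src-family kinase of B cells, had 146 and 142 with G-CSF, against 1882 and 181 with PBS, and PBS replicate 1 was alone in being high. Among the B cell markers, which include Blk, 4 of 6 were lower on PBS replicate 1 than on PBS replicate 2, while Blk and Pax5 were higher. As given above, 8 of 9 T cell markers were highest on PBS replicate 1. The part of B or T cells in the Blk signal was not tested. The kinase list had a median of 0.19, which leaving out PBS replicate 1 changed to -0.04 and leaving out PBS replicate 2 to 0.88.

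Among the other Janus kinases and STATs, 0 of 7 tested were called, and the median of -0.04 became 0.13 when PBS replicate 1 was left out and 0.02 when PBS replicate 2 was. Stat5b, the close relative of Stat5a, had 315 and 405 with G-CSF, against 1159 and 483 with PBS, a difference of -1.02 ± 0.50, while another Stat5b probe set gave 0.05. As with Stat5a, PBS replicate 1 was the high array. Jak3, the kinase of lymphoid cytokine receptors, differed by 0.84 ± 0.44, and Stat6, the transcription factor of interleukin 4, by 0.42 ± 0.32 (limma adjusted p = 0.988 for these 3 genes). Jak3 was not above background on PBS replicate 2, and its difference was 0.42 and 1.25 against PBS replicates 1 and 2 alone. Another Stat6 probe set gave 0.12.

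Adaptors and inhibitors gave differences in both directions. Of 9 adaptors and exchange factors 0 were called, and the median of 0.20 became 0.15 when PBS replicate 1 was left out and -0.19 when PBS replicate 2 was. Gab2, a docking protein for phosphatases and PI3 kinase, had 3803 and 3217 with G-CSF, against 1285 and 2229 with PBS. Its difference was 1.04 ± 0.40, with 1.54 and 0.64 by other probe sets. Crkl and Cblb, an adaptor and a ubiquitin ligase, stood at -0.66 ± 0.41 and -0.53 ± 0.38, the 2 other Cblb probe sets giving -0.10 and 0.21. Of 11 phosphatases and other inhibitors 0 were called, with a median of 0.27. Ptpn2, a phosphatase of JAKs and STATs, had 2249 and 2579.9 with G-CSF, against 7339 and 3949.6 with PBS, a difference of -1.15 ± 0.42, but its other probe sets gave -0.29 and -0.10. Sh2b3, an adaptor that damps JAK2, and Inpp5d, the phosphatase SHIP-1, differed by 0.85 ± 0.37 and 0.76 ± 0.35. Another Inpp5d probe set gave 0.37. The limma adjusted p was 0.988 for each gene named here.

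Of 5 tested SOCS genes 0 were called, and their differences ran from -0.34 to 0.45. Socs5, Socs4 and Socs7 differed by 0.45 ± 0.33, -0.34 ± 0.35 and -0.33 ± 0.48. Other Socs7 probe sets gave -0.30 and 0.43, other Socs4 probe sets -0.58 to -0.02, and another Socs5 probe set 0.37. Socs1 was not above background on any array. Of 18 PIM kinases and STAT targets 0 were called, while 6 were higher and 1 lower without overlap. Of all genes tested, 18.6% were higher and 12.1% lower without overlap. The median of 0.37 for these 18 turned to -0.05 when PBS replicate 1 was left out and to 0.85 when PBS replicate 2 was. Cebpd, a C/EBP factor induced by STAT3, had 4930.1 and 4694 with G-CSF, against 502 and 2263 with PBS. Both G-CSF arrays lay above both PBS arrays, and the PBS arrays were far apart, so the difference of 2.14 ± 0.73 (limma adjusted p = 0.988) was 3.20 against PBS replicate 1 alone and 1.08 against PBS replicate 2 alone, with 1.01 by another probe set. Bcl6, a transcriptional repressor, had 3919 and 3350.3 with G-CSF, against 1306 and 1705 with PBS, a difference of 1.27 ± 0.34 (limma adjusted p = 0.961). Gadd45b, a stress response gene, differed by 0.95 ± 0.38 (limma adjusted p = 0.988), with 0.43 and 0.75 by other probe sets. The summed neutrophil and hepatocyte signals given above also differ between these arrays, and their part in these values was not tested.

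Of 11 tested PI3 kinase, AKT and MAP kinase genes 0 were called, and the median was 0.36. Pik3cb, a catalytic subunit of PI3 kinase, differed by 1.30 ± 0.52, Mapk14, the p38 kinase, by 0.68 ± 0.34 and Pik3r5, the regulatory subunit of the gamma isoform, by 0.61 ± 0.40 (limma adjusted p = 0.988 for each), while other Mapk14 probe sets gave -0.07 to 0.33. Pik3cb was not above background on PBS replicate 1, and its difference was 1.90 against that array alone and 0.70 against PBS replicate 2 alone. Among the related cytokines and receptors, 7 of 10 measured genes passed the filter and 0 were called. Transcripts of the ligand were not detected above background: Csf3, which encodes mouse G-CSF, had 11.0 and 9.77 with G-CSF, against 26.0 and 13.3 with PBS, not above background on any array, nor was Il6. Il6ra, the interleukin 6 receptor, had 525 and 559 with G-CSF, against 63.0 and 376 with PBS, a difference of 1.61 ± 0.76. It was not above background on PBS replicate 1, and the difference was 2.72 against that array alone and 0.50 against PBS replicate 2 alone. Il10rb and Lepr differed by 0.85 ± 0.45 and 0.57 ± 0.41 (limma adjusted p = 0.988 for these 3 receptors). Another Il10rb probe set gave 0.44, and Lepr was not above background on PBS replicate 1.

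**Figure D3:**
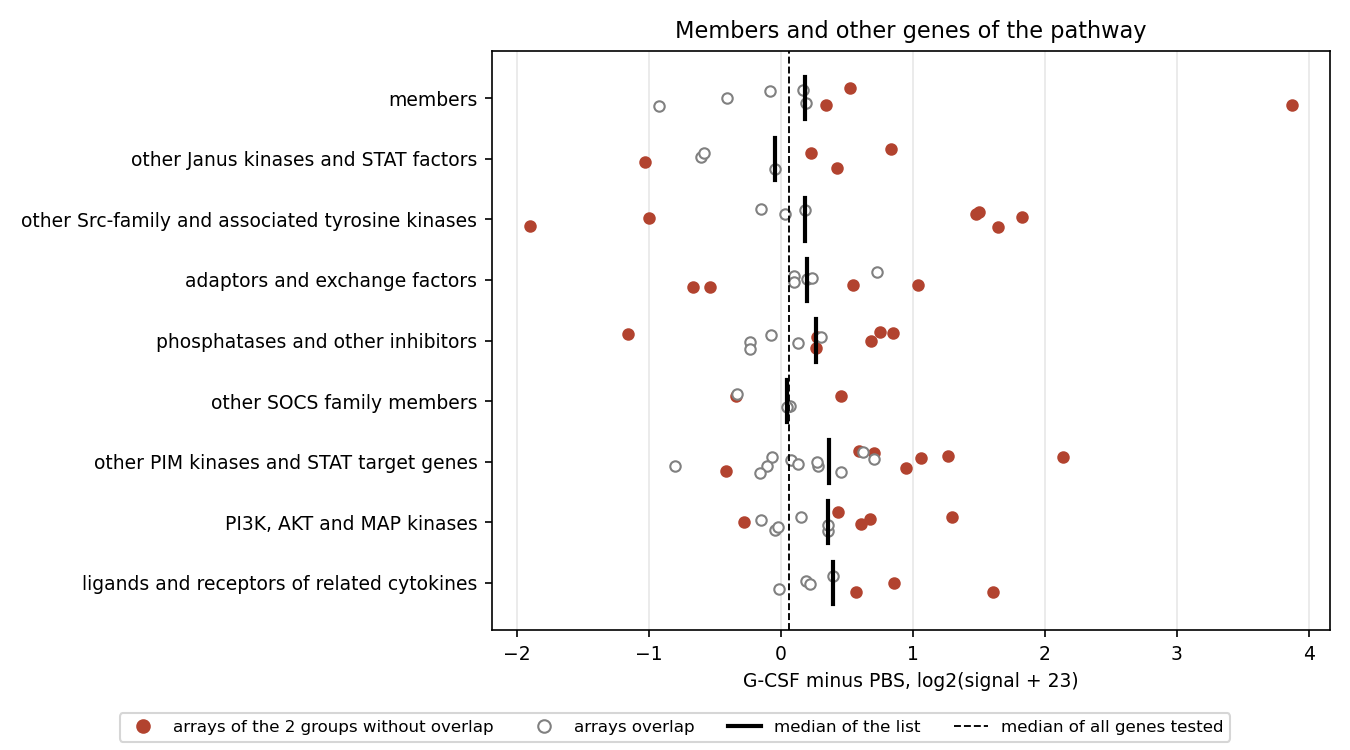
Log2 differences, G-CSF minus PBS, of the tested members and of the 77 other pathway genes by list, with red points for genes whose arrays do not overlap between the groups, open points for the others, black bars for list medians and a dashed line for the median of all genes tested. Csf3r at 3.87 lies beyond every other gene shown, the next being Cebpd at 2.14, and list medians run from -0.04 to 0.40.

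The genes most like Csf3r were sought by profile. The measure was the largest gap, over the 4 arrays, between 2 log2 profiles that were each centred on their mean, so that a small value means a like pattern and a like size. The nearest were Klra17 (0.20), Trem3 (0.31), Il1r2 (0.32), Pram1 (0.33) and Tmem40 (0.41). Trem3 is an activating receptor of myeloid cells and Il1r2 the decoy receptor of interleukin 1. Il1r2 had 1978 and 1624 with G-CSF, against 95.5 and 168 with PBS, and Pram1, an adaptor of granulocytes, had 2546 and 2025 with G-CSF, against 135 and 199 with PBS. All 5 were separated between the groups, which follows from their choice by nearness to Csf3r. Klra17 was not above background on either PBS array and was at least 6.84-fold higher with G-CSF. None passed the test (limma adjusted p = 0.0676 to 0.112), and the measure used the same 4 arrays. Of the 4 genes among them with a promoter window in the table, the PU.1 core was present for Klra17 and Pram1 and not for Il1r2 and Tmem40, where 28.3% of all windows hold it.

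**Figure D4:**
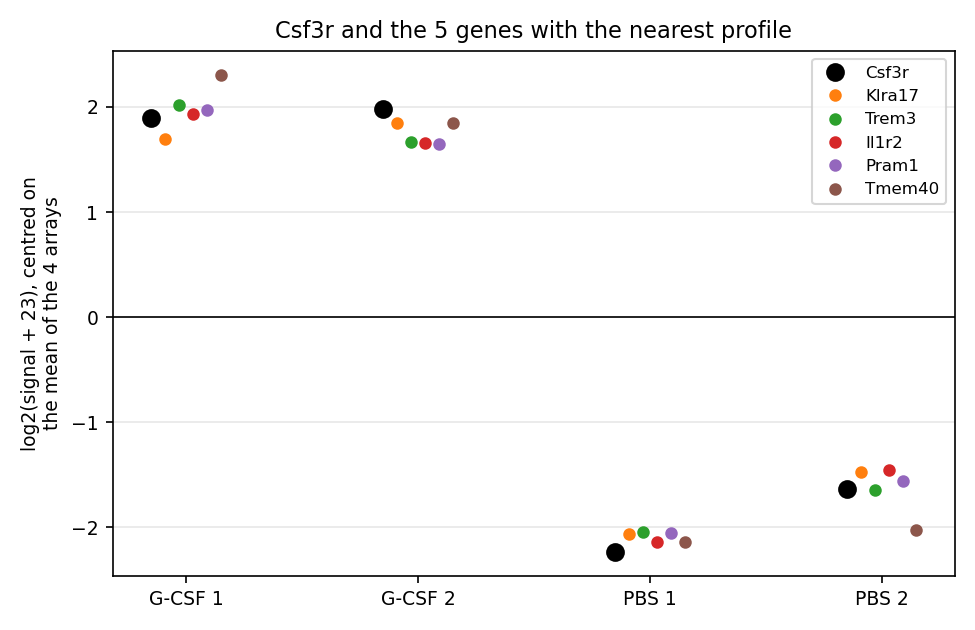
Log2(signal + 23), centred on the mean of the 4 arrays, for Csf3r (large black points) and the 5 genes with the nearest profile on the 2 G-CSF and the 2 PBS arrays. The points of all 6 genes lie above 0 on both G-CSF arrays and below 0 on both PBS arrays. No gene is farther than 0.41 from Csf3r on any array. Both follow from the choice of the 5 genes by nearness to Csf3r.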

How the data were processed

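Total RNA (40 ng, RNeasy) was labelled with the 3′ IVT Express kit, per the labels' protocols. The authors deposited intensity values that the submitters' processing notes credit to MAS5, with no version, and on each array these linear values have a 2% trimmed mean of 500. With 4 arrays, their number limits the precision. No column was left without a sample.

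Of 45101 probe sets, 64 controls, 932 listing several genes and 9160 listing none were left out. Where a gene had several probe sets, the strongest on average stood for it, giving 18193 genes, and the 12187 whose mean signal exceeded 95.0 (the median of non-control probe sets) were tested. All 8 measured members passed, and 2 of their 17 probe sets did not. A pseudocount of 23, the median value of 92.9 divided by 4, was added before log2. The comparison used lmFit and eBayes with a trend (limma 3.58.1, R 4.3.3; two-sided, Benjamini-Hochberg at 0.05; residual degrees of freedom 2, prior degrees of freedom 3.13). Intervals are at 95%. The background limit was the highest of 27 controls for bacterial sequences, taken as not added, a limit chosen with earlier results known, and a group below it on both arrays gives a lower bound.

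The members and lists were chosen with earlier results of these data known. Named are all members, up to 3 genes per pathway list with the smallest p, the 5 genes nearest to Csf3r in profile and the 2 strongest of marker lists; Csf3, Il6, Socs1, Syk, Blk, F13a1, Ccr2, Cd68, Saa3 and Lcn2 were picked after their values were seen. Symbols came from the platform table and gene spans and promoters from RefSeq GRCm38.p6. The fit was tested on simulated data. The labels state no pairing by replicate number. The correlation of deviations between replicate numbers was -0.04, a single value that cannot exclude a shared batch. Alternatives changed the pseudocount, scaling, filter, choice of probe sets, variance model, replicate block and arrays kept. Plots used matplotlib 3.10.9 and pandas 2.3.3 in Python 3.11.15.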

Additional observations from a re-analysis of the deposited data

How the results depend on the processing

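The Csf3r difference kept its direction under all 16 alternatives, from 3.52 to 4.17, with limma adjusted p from 3.77e-05 to 0.125. It passed the threshold with array weights (3.87, adjusted p = 0.0134), with the replicate block (3.87, adjusted p = 3.77e-05) and without either PBS array, and with 1 array left out at a time it ran from 3.57 to 4.17. The labels state no pairing by replicate number, so the block result is given here only. Over all genes 0 were called, against 33 with array weights, 92 with the replicate block and 6 to 4689 with 1 array left out (516 and 4689 when PBS replicates 1 and 2 were dropped in turn, 6 and 22 when G-CSF replicates 1 and 2 were). Of the members 0 were called, against 1 with array weights, 1 with the replicate block and 0 to 3 with 1 array left out. The 3 came without PBS replicate 2: Csf3r, Stat3 (0.68, adjusted p = 0.0410) and Stat5a (-1.76, adjusted p = 0.00785). In that fit 38.5% of all genes were called, and the lone PBS array was assumed to vary like the G-CSF arrays. Genes at least 2-fold apart without overlap numbered 677, against 378 with the filter at the 75th percentile, which tests fewer genes, and 843 to 3356 with 1 array left out. Stat3 and Socs3 turned to -0.33 and -0.16 without PBS replicate 1, within ranges of -0.33 to 0.68 and -0.16 to 0.55 with 1 array left out. Pim1 turned to 0.14 with the mean of all probe sets, to 0.33 without G-CSF replicate 2 and to 0.54 without PBS replicate 1, within a range of -0.70 to 0.54 with 1 array left out. Jak2 (0.28 to 0.41), Ptpn6 (0.37 to 0.67), Cish (-0.71 to -0.10) and Stat5a (-1.76 to -0.08) kept their signs in the alternatives that could give a value; Stat5a lay below the filter at the 75th percentile. Signals near background limit the Stat5a and weaker Stat3 values.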

Other observations

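Genes that hepatocytes switch on through STAT3 mostly shared the placement of arrays seen for Stat3 and Socs3. Of 11 acute-phase genes tested, 9 had both G-CSF arrays between a low PBS replicate 1 and a high PBS replicate 2, against 21.8% of all genes tested with that placement. The placement was not particular to these genes: 7 of 10 monocyte and macrophage markers and 4 of 7 hepatocyte markers had it too. Hp, for example, had 28679 and 29134 with G-CSF, against 17394 and 34347 with PBS. The other 2, picked after their values were seen, were Saa3 and Lcn2. Saa3, a serum amyloid A protein made outside as well as inside the liver, had 7462 and 7197 with G-CSF, against 229 and 1838 with PBS, a difference of 3.43 ± 0.95 (limma adjusted p = 0.984). Lcn2, lipocalin 2, had 34540.4 and 24627 with G-CSF, against 2536 and 9128 with PBS, a difference of 2.59 ± 0.65 (limma adjusted p = 0.837). Both G-CSF arrays lay above both PBS arrays for these 2 genes, and what set them apart from the other 9 was not tested.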
